A study of Mus musculus with 143 samples.

Results

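The genes described here are 40 genes of the interferon response and of antigen presentation, chosen by name and followed across the striatum of 143 mice. They are 40 of the 41128 mouse genes in the count table: 5 transcription factors, 5 sensors of RNA or DNA, 16 antiviral effectors, 10 regulators and other induced genes, and 4 genes of antigen presentation. The mice were wild type or carried zQ175, a knock-in allele that places an expanded CAG repeat in Htt and serves as a model of Huntington's disease; the number of zQ175 alleles per mouse is not given in the sources used here. Each genotype was left untreated, given a non-targeting siRNA (NTC), or given HTT-10150, an siRNA against Htt, and followed on 1 of 3 schedules. Schedule 2[4]6 means treatment at 2 months of age and collection at 6 months, 6[4]10 means treatment at 6 months and collection at 10 months, and 2+6[8]10 means treatment at both 2 and 6 months and collection at 10 months. Untreated mice were collected at the same ages as the treated mice of their schedule. The 18 groups held 8 mice each, 4 females and 4 males, except wild type mice given HTT-10150 on 2+6[8]10, which were 7 (2 females and 5 males). The labels state no chemistry, dose or route for the siRNAs, and there is no vehicle-injected group among these samples, so the procedure, the siRNA chemistry and the NTC sequence cannot be told apart in a comparison of NTC with untreated mice.

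Type I interferons bind the receptor pair Ifnar1 and Ifnar2 and, through the kinases Jak1 and Tyk2, activate a transcription factor complex that includes Irf9 and binds the interferon-stimulated response element (ISRE) of target genes. The targets include sensors such as Ifih1 and Dhx58, effectors such as the Ifit, Oas and Mx families, and the class I antigen presentation machinery. Irf7 is itself a target and feeds the loop forward. Double-stranded RNA, including some siRNAs, can be sensed by Tlr3, Tlr7, Ifih1 or Eif2ak2, which is why these genes serve as a readout of unintended responses to an oligonucleotide. In the striatum microglia and endothelial cells are major responders.

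The sequences below show the ISRE-like motif in the promoters of members whose levels were called different in several comparisons. The motif searched was GAAA, any 2 bases, GAAA, on either strand, with overlapping matches counted. Promoter windows from 250 bases before to 50 bases after the start came from RefSeq (GRCm38.p6), and 29 of the 40 members had at least 1 window. The motif was present for 14 of those 29 members (48.3%), against 3.99% of all 27025 genes with such a window (3.44% of 32851 windows). With only the bases before the start, 11 of 29 members (37.9%) held a match, against 3.46% of genes. With the motif 1 base longer (GAAA, any 2 bases, GAAAC) 10 members (34.5%) held a match, against 0.944% of genes, and with the longer motif and only the bases before the start 7 members (24.1%), against 0.796%. Each line gives 60 bases, 5′ to 3′ on the gene's strand, with the matches in capitals; TTTC, any 2 bases, TTTC is the same motif read on the other strand.
B2m, chr2:122147538-122147597, plus strand: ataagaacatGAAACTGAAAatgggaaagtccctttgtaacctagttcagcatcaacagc
Ifit1, chr19:34640775-34640834, plus strand: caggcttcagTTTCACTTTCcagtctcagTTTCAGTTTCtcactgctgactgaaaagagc
Ifit3, chr19:34583363-34583422, plus strand: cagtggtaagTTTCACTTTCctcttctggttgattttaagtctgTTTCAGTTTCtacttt
Oas1a, chr5:120907526-120907585, minus strand: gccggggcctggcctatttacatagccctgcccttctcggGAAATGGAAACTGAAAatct
Rsad2, chr12:26456523-26456582, minus strand: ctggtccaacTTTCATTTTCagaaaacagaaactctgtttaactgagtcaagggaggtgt
Bst2, chr8:71537553-71537612, minus strand: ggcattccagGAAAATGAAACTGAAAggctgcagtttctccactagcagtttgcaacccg
Ifit1 and Ifit3 hold 2 separate matches in these stretches, and the 2 matches of Oas1a and of Bst2 overlap. The matches are a description of letters and not of binding. Irf7, H2-K1, H2-D1, Irf8 and Tlr3 had windows with no match to these letters.

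Libraries held between 12.55 M and 29.19 M counts (median 18.85 M, where M stands for 1000000). Medium spiny neuron genes such as Penk (median 634 CPM, counts per 1000000 counts) and Drd1 (median 193 CPM) were present in every library, as the striatal label requires. The summed level of 15 microglial markers lay between 520 and 753 CPM. T cells left almost no trace: Cd3e was at 0 in 90 of 143 libraries and Cd8a in 57, while Cd4 was at a median of 64.4 CPM and fell with the zQ175 genotype. Monocyte and neutrophil markers summed to at most 2.03 CPM. The 7 choroid plexus markers ranged from 29.3 to 5486 CPM and passed 1000 CPM in 15 libraries, so each count was also made without those libraries. Median Htt was 153.6 to 161.5 CPM in wild type mice that were untreated or given NTC and 124.4 to 134.6 CPM in those given HTT-10150. In zQ175 mice it was 125.7 to 138.2 CPM without HTT-10150, and with it 127.9 CPM on 2[4]6, 105.9 CPM on 6[4]10 and 108.7 CPM on 2+6[8]10. On 2[4]6 it was 125.7 CPM in untreated zQ175 mice and 127.1 CPM under NTC, so the median under HTT-10150 was not lower there. In bulk tissue, fewer cells of a type and less RNA per cell cannot be told apart.

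Per length, the members spanned a wide range. B2m, the light chain of class I molecules, had the highest median over libraries at 161.2 TPM (transcripts per 1000000 transcripts), followed by Ifi27 at 50.4 TPM and the class I heavy chains H2-D1 at 48 TPM and H2-K1 at 45 TPM. The membrane-associated antiviral protein Ifitm3 stood at 26.7 TPM and the secreted glycoprotein Lgals3bp at 13.6 TPM. Most members were low: Irf7 had a median of 2.33 TPM, Ifit1 1.95 TPM, Mx2 0.945 TPM and Oas2 0.431 TPM. At the bottom, Zbp1 (713 counts in all 143 libraries together), Mx1 (460 counts) and Oas3 (a median of 1 count per library) did not pass the filter on low counts, so 37 of 40 members were tested. The Ifit, Oas and H2 families have similar sequences, and Parp9 and Dtx3l overlap head to head, so their counts are less certain than those of single genes.

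**Figure D1:**
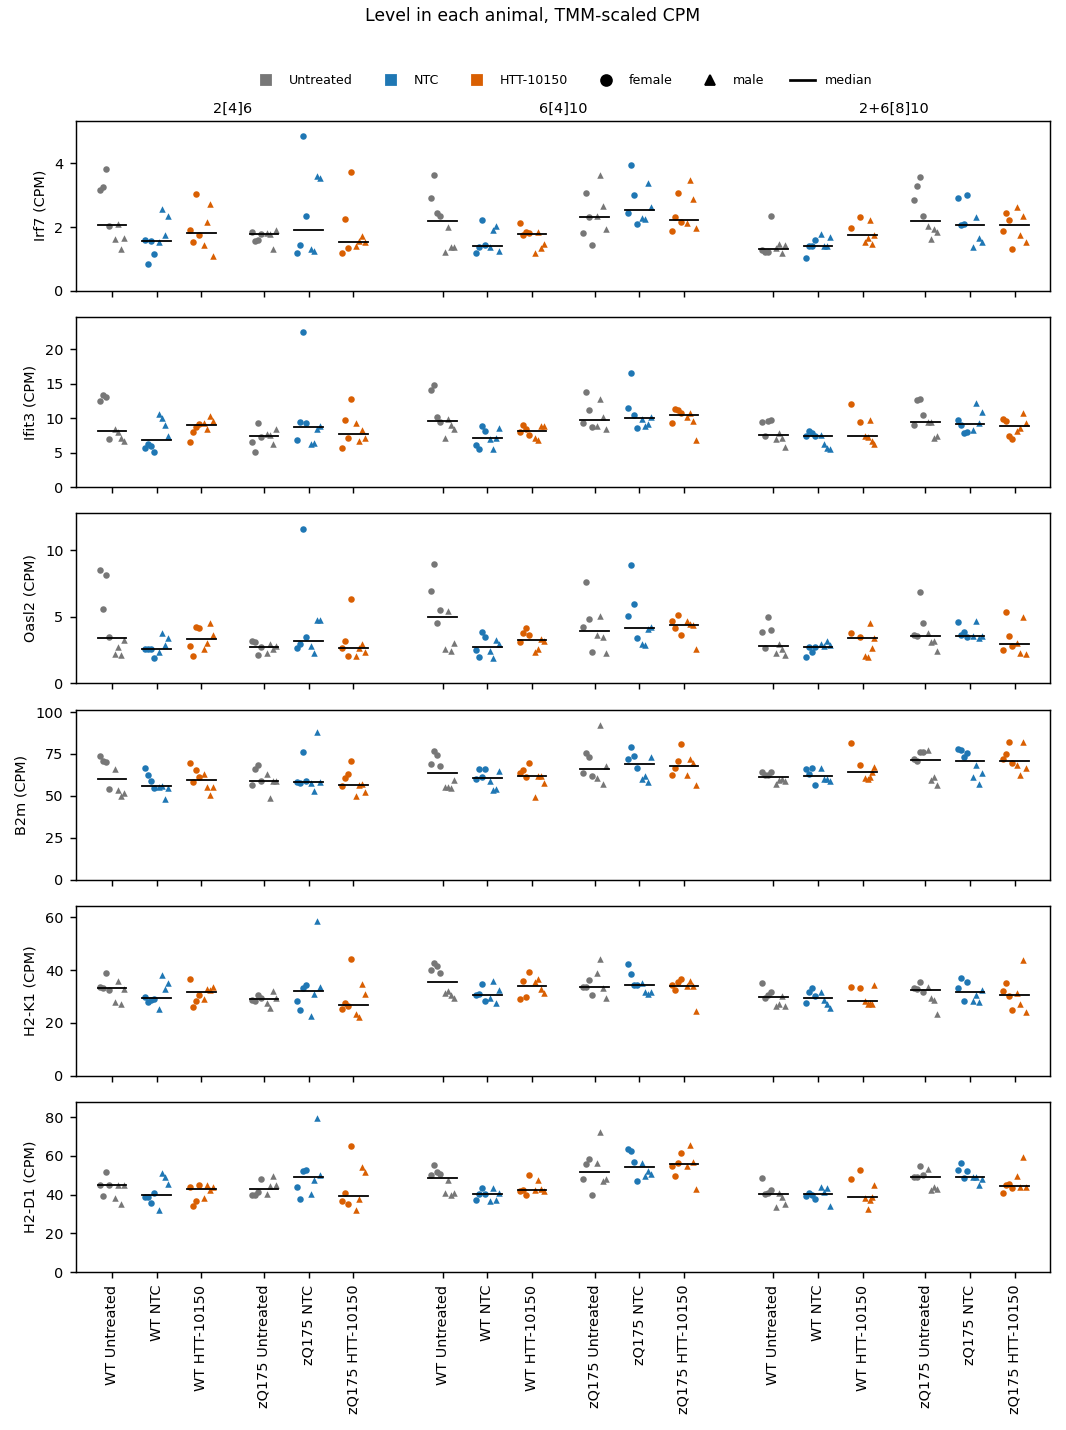
Level of Irf7, Ifit3, Oasl2, B2m, H2-K1 and H2-D1 in every animal (TMM-scaled CPM, each axis from 0), by group; colours mark the treatment, circles females, triangles males and bars the group median. Untreated and siRNA-treated groups of a genotype overlap on each schedule, and single animals stand far above their group, such as the Oasl2 value of 11.6 CPM in a zQ175 female given NTC on 2[4]6.

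The first question was whether the siRNAs moved these genes. In none of the 6 comparisons of NTC with untreated mice, and in none of the 6 comparisons of HTT-10150 with untreated mice, did any of the 37 members pass edgeR's quasi-likelihood test at an adjusted p under 0.05. NTC called 0% of all tested genes in wild type mice on 2[4]6 and on 6[4]10, and 0.181% on 2+6[8]10; in zQ175 mice it called 0% on each schedule. HTT-10150 called 0.00636%, 0% and 0.00645% of genes in wild type mice on 2[4]6, 6[4]10 and 2+6[8]10, and 0.0127%, 0% and 1.23% in zQ175 mice. Beside such shares, 0 of 37 is near the background in each comparison. Each count stayed at 0 in all alternative fits, including DESeq2 and leaving out each replicate number. No member had an NTC or HTT-10150 group that lay wholly outside its untreated group, beside 0% to 0.181% of all genes over the 12 comparisons.

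At an unadjusted p under 0.05, NTC against untreated gave 2, 18 and 4 of 37 members in wild type mice on 2[4]6, 6[4]10 and 2+6[8]10, beside 2.01%, 2.5% and 11.4% of all genes. In zQ175 mice it gave 13, 2 and 0, beside 4.99%, 7.41% and 3.05%. The 18 and the 13 of 37 are larger shares than those of all genes. Under NTC the log2 fold change was above 0 in 4, 2 and 15 of 37 members in wild type mice. In zQ175 mice it was above 0 in 33, 27 and 21. HTT-10150 against untreated gave 0, 7 and 3 in wild type mice, beside 2.97%, 2.6% and 4.46%, and 3, 2 and 3 in zQ175 mice, beside 9.64%, 6.53% and 15.1%. The median log2 fold change of the members under NTC was -0.10, -0.23 and -0.06 in wild type mice and 0.24, 0.08 and 0.01 in zQ175 mice, while the median over all genes tested lay between -0.0024 and 0.0035. Under HTT-10150 the members' medians were -0.04, -0.10 and 0.06 in wild type mice and 0.05, 0.03 and -0.07 in zQ175 mice. The NTC and HTT-10150 comparisons share their untreated mice, so their values are given side by side only.

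The wild type mice on 6[4]10 gave the largest number of members below an unadjusted p of 0.05. Oasl2, a protein of the 2′-5′-oligoadenylate synthetase family, ran from 2.44 to 8.92 CPM in untreated mice (median 4.97), from 1.90 to 3.83 under NTC (median 2.75) and from 2.35 to 4.13 under HTT-10150 (median 3.28). Ifit3, which acts with Ifit1 in binding viral RNA, ran from 7.11 to 14.8 CPM untreated (median 9.60), from 5.49 to 8.83 under NTC (median 7.04) and from 6.75 to 8.93 under HTT-10150 (median 8.14). In both genes the untreated group reached highest and the ranges overlapped. The log2 fold change of Ifit3 under NTC was -0.53 ± 0.13 (SE, 95% interval -0.787 to -0.270), with an unadjusted p of 0.000152 and an adjusted p of 0.479. That of Oasl2 was -0.76 ± 0.21 (95% interval -1.191 to -0.337, adjusted p = 1). With females alone 23 of 37 members were below an unadjusted p of 0.05 (median log2 fold change -0.397), beside 4.75% of all genes. With males alone 0 were (median 0.000), beside 1.07%. The difference between the sexes was not tested. Without female replicate 2 of every group the count was 7, beside 2.12% of genes, and without female replicate 1 it was 8, beside 1.85%.

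Of the 6 comparisons of NTC with untreated mice, that of zQ175 mice on 2[4]6 had the highest median of the members. Irf7 ran from 1.30 to 1.92 CPM in untreated mice (median 1.79), from 1.18 to 4.85 under NTC (median 1.89) and from 1.19 to 3.72 under HTT-10150 (median 1.54). Oasl2 ran from 2.11 to 3.14 CPM untreated (median 2.74), from 2.31 to 11.6 under NTC (median 3.21) and from 2.05 to 6.34 under HTT-10150 (median 2.63). The group medians stayed close, and the treated groups differed from the untreated group mainly in their highest animals. The log2 fold change of Oasl2 under NTC was 0.71 ± 0.27 (95% interval 0.157 to 1.257, adjusted p = 0.963). The ubiquitin-like protease Usp18, a brake on interferon signalling, had a log2 fold change of 0.74 ± 0.33 (adjusted p = 0.963). Without female replicate 3 of every group, 6 instead of 13 members were below an unadjusted p of 0.05, beside 4.93% of all genes.

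On 2+6[8]10, the schedule with repeated dosing, 0 members were called under either siRNA. In wild type mice given HTT-10150, 32 of 37 members had a log2 fold change above 0, the highest of them 0.39, and the highest bound of a 95% interval was 1.023. Irf7 ran from 1.20 to 2.36 CPM in untreated wild type mice (median 1.32), from 1.04 to 1.77 under NTC (median 1.41) and from 1.46 to 2.33 under HTT-10150 (median 1.76). In zQ175 mice its medians were 2.19 CPM untreated, 2.07 under NTC and 2.05 under HTT-10150. B2m had medians of 61.3, 61.7 and 63.98 CPM in the wild type groups and 71.4, 70.6 and 70.7 CPM in the zQ175 groups, in the same order. The intervals show what size of difference these groups could hide at collection. Each treated group was collected 4 months after its last treatment. No earlier time was sampled, so a response that had ended by then would not be seen. In zQ175 mice given NTC on this schedule all 37 members had a 95% interval within 1 log2 unit of no change, with the lowest bound at -0.672 and the highest at 0.591. Over the 12 comparisons with untreated mice, between 31 and 37 of 37 members had such an interval, and the fewest were in zQ175 mice given NTC on 2[4]6, where the highest bound was 1.395. A p that misses the threshold does not show that the values were the same.

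**Figure D2:**
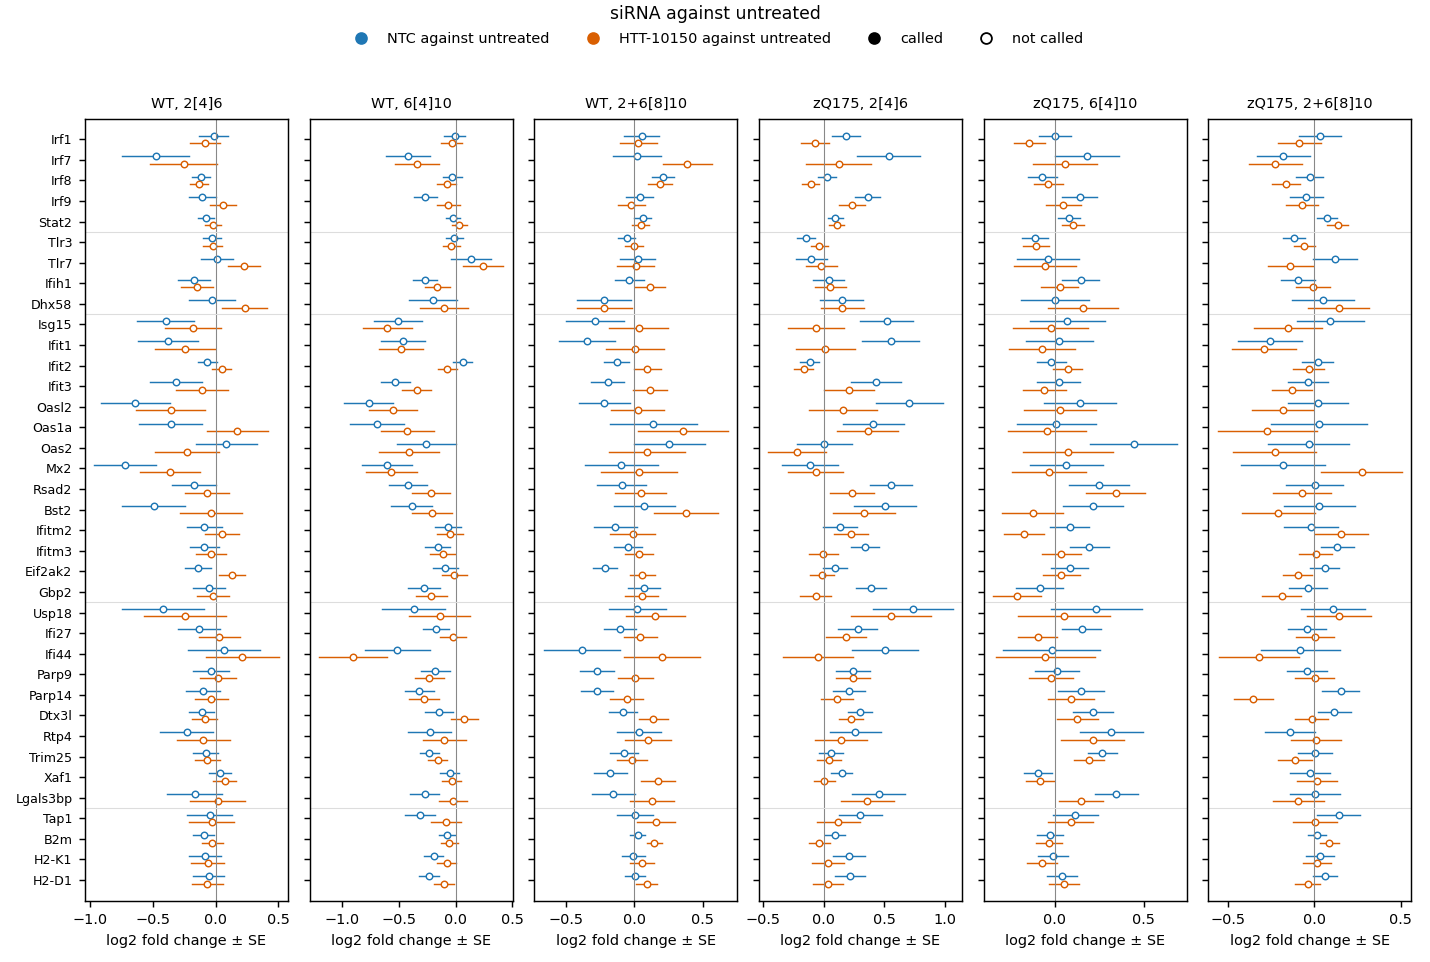
Log2 fold change of each tested member under NTC or HTT-10150 against untreated mice, by schedule and genotype, with bars of 1 SE to each side from the edgeR fit; open symbols are values that were not called. No symbol is filled, since 0 of 37 members were called in any of the 12 comparisons.

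HTT-10150 was also set against NTC, where both groups were given an siRNA on the same schedule. The labels do not state whether dose and route were equal. In wild type mice 0 members were called on each schedule, beside 0.00636%, 0% and 0.0129% of all genes on 2[4]6, 6[4]10 and 2+6[8]10. At an unadjusted p under 0.05 the members numbered 2, 0 and 9, beside 5.93%, 3.28% and 5.24% of genes. In zQ175 mice 0 members were called on 2[4]6 and 6[4]10, where 0% of all genes were called, with 5 and 2 members at an unadjusted p under 0.05, beside 5.22% and 3.56% of genes. On 2+6[8]10 the only called member was Parp14, beside 3.16% of all genes. Parp14, an ADP-ribosyltransferase that interferon induces, ran from 4.25 to 8.50 CPM in untreated zQ175 mice (median 4.74), from 4.74 to 7.17 under NTC (median 5.76) and from 3.39 to 5.05 under HTT-10150 (median 3.98). The HTT-10150 and NTC ranges overlapped only between 4.74 and 5.05 CPM. Parp14 fell by 0.51 ± 0.11 on the log2 scale (adjusted p = 0.0068). The call was lost without female replicate 4 of every group (adjusted p = 0.0503), with length and GC slopes as covariates (log2 fold change -0.327, adjusted p = 0.308), with a block for the middle number of the library names (adjusted p = 0.0706) and in each sex alone.

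Whether the siRNA effect differed between genotypes was tested directly, as the mean of NTC and HTT-10150 against untreated mice in zQ175 minus that in wild type. No member was called on any schedule, and neither was any other gene (0%, 0% and 0% of genes). At an unadjusted p under 0.05 the members numbered 9, 12 and 2 on 2[4]6, 6[4]10 and 2+6[8]10, beside 3.83%, 6.49% and 3.14% of genes, with medians of 0.22, 0.26 and -0.01 on the log2 scale. In females alone 13 and 22 members were below that p on 2[4]6 and 6[4]10, beside 5.82% and 6.25% of genes, and in males alone 1 and 2, beside 1.61% and 4.6%; the difference between the sexes was not tested.

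The second question was the genotype. Markers of medium spiny neurons and of astrocytes moved with it in each comparison, beside 17% to 25.5% of all genes lower. Of 10 medium spiny neuron markers, 9 were lower in zQ175 on each schedule, in untreated and in siRNA-treated mice, and the medians of their sum were 9958 to 10760 CPM in the untreated wild type groups and 5352 to 5621 CPM in the untreated zQ175 groups. Of 6 astrocyte markers 3 to 5 were lower, and the medians of their sum were 3003 to 3416 CPM and 2392 to 2767 CPM in the same groups. The part of these shifts in the members' values was not tested.

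In untreated mice collected at 6 months (2[4]6), 6 members were lower and 1 was higher in zQ175, beside 17.2% of all genes lower and 15.3% higher; the 6 of 37 are 16.2%, a share near that background. The median of the members was -0.18 and that of all genes 0.0035. Bst2, or tetherin, which holds budding viruses at the cell surface, ran from 1.97 to 5.64 CPM in wild type mice (median 2.99) and from 1.60 to 2.62 in zQ175 (median 2.11), and fell by 0.75 ± 0.25 on the log2 scale (adjusted p = 0.018). Ifitm2 ran from 3.11 to 5.17 CPM in wild type mice (median 4.198) and from 2.46 to 3.21 in zQ175 (median 3.02), and fell by 0.46 ± 0.14 (adjusted p = 0.0081). In both genes the highest wild type animals lay well above every zQ175 animal, while the lowest overlapped.

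Rsad2, or viperin, ran from 1.31 to 3.54 CPM in wild type mice (median 1.98) and from 1.32 to 2.41 in zQ175 (median 1.53), with a log2 fold change of -0.46 ± 0.18 (adjusted p = 0.038). Ifitm3 ran from 7.21 to 10.7 CPM in wild type mice and from 6.31 to 8.90 in zQ175, with a log2 fold change of -0.34 ± 0.12 (adjusted p = 0.019). Irf8, a factor of myeloid cells that in brain marks microglia, ran from 9.66 to 11.3 CPM in wild type mice (median 10.4) and from 7.71 to 9.66 in zQ175 (median 8.67). The Irf8 groups met only at their edges, and the log2 fold change was -0.29 ± 0.07 (adjusted p = 0.0011). Ifit2 was the member that rose, by 0.20 ± 0.08 (adjusted p = 0.034). Oasl2 had a log2 fold change of -0.69 ± 0.27 (adjusted p = 0.047), which was -1.199 in females alone and 0.026 in males alone. The spread was unequal: the SD of Oasl2 was 2.59 CPM over the untreated wild type mice and 0.379 CPM over the untreated zQ175 mice. Beside these values, 4 of 15 microglial markers were lower and 1 was higher in zQ175, with sums of 636 to 697 CPM in wild type and 588 to 643 CPM in zQ175, and 7 of 8 endothelial markers were lower, with sums of 246.5 to 316.3 CPM and 211.6 to 254.4 CPM. The part of these cells in the result was not tested. The number of members called fell from 7 to 2 without female replicate 2 of every group, to 3 without female replicate 3 and to 4 without male replicate 4.

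On 6[4]10, collected at 10 months, 1 untreated member was higher and 2 were lower in zQ175, beside 19.2% of all genes higher and 17% lower. Rsad2 ran from 1.81 to 3.03 CPM in wild type mice (median 2.63) and from 0.962 to 2.43 in zQ175 (median 1.83), and fell by 0.45 ± 0.17 on the log2 scale (adjusted p = 0.031). Eif2ak2, the kinase PKR, which stops translation when it binds double-stranded RNA, ran from 4.23 to 6.57 CPM in wild type mice and from 5.44 to 8.14 in zQ175, and rose by 0.29 ± 0.11 (adjusted p = 0.028). Tlr3, the endosomal receptor for double-stranded RNA, ran from 12.01 to 14.5 CPM in wild type mice (median 12.7) and from 9.68 to 12.9 in zQ175 (median 10.96), and fell by 0.18 ± 0.07 (adjusted p = 0.046). Without female replicate 2 of every group 0 of these 3 calls were left, and the call of Tlr3 was lost in 10 of 19 alternatives.

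On 2+6[8]10, 8 untreated members were higher in zQ175 and 0 lower, beside 17.1% of all genes higher and 18.3% lower; 8 of 37 are 21.6%. Irf7 ran from 1.20 to 2.36 CPM in wild type mice (median 1.32) and from 1.61 to 3.56 in zQ175 (median 2.19). A single wild type female accounted for the overlap at the top of the wild type range. Rtp4, a chaperone of receptor transport that interferon induces, ran from 1.15 to 2.37 CPM in wild type mice (median 1.53) and from 1.51 to 3.21 in zQ175 (median 2.15), and rose by 0.41 ± 0.15 on the log2 scale (adjusted p = 0.034). H2-D1 ran from 33.5 to 48.5 CPM in wild type mice (median 40.4) and from 42.6 to 54.6 in zQ175 (median 49.2), and rose by 0.25 ± 0.07 (adjusted p = 0.0056). The other calls were the ubiquitin ligase Trim25 (0.27 ± 0.10), the RNA sensor Ifih1 (0.26 ± 0.10), Irf8 (0.25 ± 0.08), Eif2ak2 (0.25 ± 0.09) and B2m (0.14 ± 0.05), with adjusted p between 0.013 and 0.046. Beside these, 0 of 15 microglial markers were higher and 1 lower, with sums of 627.8 to 690.8 CPM in wild type and 586.2 to 711.2 CPM in zQ175. Of the 9 tested markers of activated microglia 4 were higher and 1 lower. The sums of that list, mostly Lpl and Axl, were 156.7 to 182.4 CPM in wild type and 164.5 to 177.9 CPM in zQ175. Of 8 endothelial markers 3 were lower, with sums of 219.5 to 289 CPM and 212.6 to 256.1 CPM. The part of these cells was not tested. The number of members called was 4 without female replicate 2 of every group and 4 without female replicate 3. It was 5 without male replicate 3 and 5 without the libraries high in choroid plexus markers.

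A genotype comparison could also be made in other animals, the mice given either siRNA, as the mean of the genotype difference under NTC and under HTT-10150. It holds more mice than the untreated comparison, and part of them were given an siRNA against Htt. The counts of calls in the 2 comparisons are therefore not on equal terms. On 6[4]10, 21 members were higher in zQ175 and 1 was lower, beside 25.1% of all genes higher and 22.4% lower. The 21 are 56.8% of the members tested, and that share is higher than that of all genes. The members' median was 0.25 and that of all genes 0.0100. Irf7 ran from 1.20 to 2.23 CPM in wild type mice under NTC (median 1.41) and from 2.10 to 3.96 in zQ175 (median 2.52), and from 1.20 to 2.13 (median 1.79) against 1.87 to 3.49 (median 2.24) under HTT-10150. Under NTC the groups met only at their edges, under HTT-10150 they overlapped more, and Irf7 rose by 0.68 ± 0.13 on the log2 scale (adjusted p = 3.5e-05). Lgals3bp ran from 10.4 to 14.2 CPM in wild type mice under NTC and from 16.1 to 33.1 in zQ175, without overlap. It ran from 12.02 to 23.6 CPM against 13.7 to 20.3 under HTT-10150, with overlap, and rose by 0.49 ± 0.09 (adjusted p = 9.6e-06).

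Antiviral effectors made up 9 of the 21 members that rose on 6[4]10 in siRNA-treated mice: 9 of 14 tested effectors rose and 0 fell. Mx2, a dynamin-like GTPase, rose by 0.61 ± 0.15, Oasl2 by 0.54 ± 0.15, Oas2 by 0.46 ± 0.18, Oas1a by 0.46 ± 0.16, Ifit3 by 0.44 ± 0.09, Ifit1 by 0.43 ± 0.14 and Bst2 by 0.42 ± 0.12 on the log2 scale. Medians of Mx2 were 0.659 CPM in wild type and 1.1 CPM in zQ175 under NTC, and 0.617 and 1.003 CPM under HTT-10150. Of the regulators and other induced genes 6 of 10 rose, led by Rtp4 (0.54 ± 0.13). Of the transcription factors 2 of 5 rose, Irf7 and Irf8 (0.14 ± 0.06). The Irf8 call was lost without the filter on low counts (adjusted p = 0.0527) and in each sex alone. It was also lost without female replicate 2 or 3, or without male replicate 1, 2 or 4, of every group. Of the antigen presentation genes 3 of 4 rose. H2-D1 rose by 0.39 ± 0.06 (adjusted p = 5.7e-07), Tap1, a subunit of the peptide transporter, by 0.27 ± 0.09, and B2m by 0.15 ± 0.05. H2-D1 ran from 36.6 to 43.5 CPM in wild type mice and from 47.2 to 63.4 CPM in zQ175 mice under NTC, without overlap, and from 39.8 to 50.3 CPM against 42.8 to 65.8 CPM under HTT-10150. Tlr3 was the member that fell, by 0.27 ± 0.05 (adjusted p = 3e-05). Beside these, 3 of 15 microglial markers and 6 of 8 endothelial markers were lower and 0 higher, and 4 of 10 tested markers of activated microglia were higher and 1 lower. The medium spiny neuron sum had medians of 9921 CPM in wild type and 5428 CPM in zQ175 under NTC, and the astrocyte sum 2992 and 2477 CPM. The part of these cells was not tested. The count of called members was between 18 and 23 when any 1 replicate number was left out, and 13 in males alone.

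On 2+6[8]10, 14 members were higher and 1 lower in siRNA-treated zQ175 mice, beside 26.5% of all genes higher and 25.5% lower. The 14 are 37.8% of the members tested. The changes were smaller: Ifit1 rose by 0.34 ± 0.14, the helicase Dhx58 by 0.32 ± 0.14, Eif2ak2 by 0.31 ± 0.06 (adjusted p = 3.4e-05), Lgals3bp by 0.30 ± 0.11, Irf7 by 0.29 ± 0.12 and Rtp4 by 0.27 ± 0.11 on the log2 scale. Eif2ak2 ran from 4.99 to 6.25 CPM in wild type mice and from 7.08 to 8.71 in zQ175 under NTC, without overlap. Under HTT-10150 it ran from 5.45 to 7.39 CPM in wild type mice and from 6.38 to 8.53 in zQ175, with overlap. Ifit1 ran from 1.25 to 2.54 CPM (median 1.95) against 1.79 to 3.56 (median 2.82) under NTC, and the ranges overlapped under both siRNAs. Choroid plexus markers moved with this comparison: 6 of 7 were higher in zQ175, with a median of the list of 2.04 on the log2 scale, and medians of the sum of 57.6 and 67.8 CPM in the wild type groups and 75.6 and 144.6 CPM in the zQ175 groups. Without the libraries over 1000 CPM, 6 of the 14 calls were lost: Irf7 (log2 fold change 0.273, adjusted p = 0.0568), Dhx58 (0.34, adjusted p = 0.0534), Lgals3bp (0.168, adjusted p = 0.063), Parp14, Parp9 and Ifi27. Over all alternatives the call of Dhx58 was lost in 14 of 20, that of Rtp4 in 10 and that of Irf7 in 8. The count of called members was 8 without male replicate 2 of every group and 8 in males alone, and 4 in females alone.

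On 2[4]6, 3 members were higher and 3 lower in siRNA-treated zQ175 mice, beside 23.7% of all genes higher and 24.6% lower. Each 3 are 8.11% of the members tested. Mx2 rose by 0.48 ± 0.17 on the log2 scale, Dtx3l, a ubiquitin ligase that pairs with Parp9, by 0.23 ± 0.07, and Xaf1, which promotes cell death, by 0.16 ± 0.06. Ifitm2 fell by 0.26 ± 0.10, Irf8 by 0.21 ± 0.05 and Tlr3 by 0.12 ± 0.05. Ifitm2 and Irf8 thus fell in untreated and in siRNA-treated mice at 6 months: 2 of the 6 and 2 of the 3 members lower in each. Microglial markers were lower with them, 12 of 15, and 1 was higher; all 8 endothelial markers were lower. The part of these cells was not tested. The count of called members was 3 without female replicate 2 of every group, 3 without male replicate 4 and 3 without the libraries high in choroid plexus markers.

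**Figure D3:**
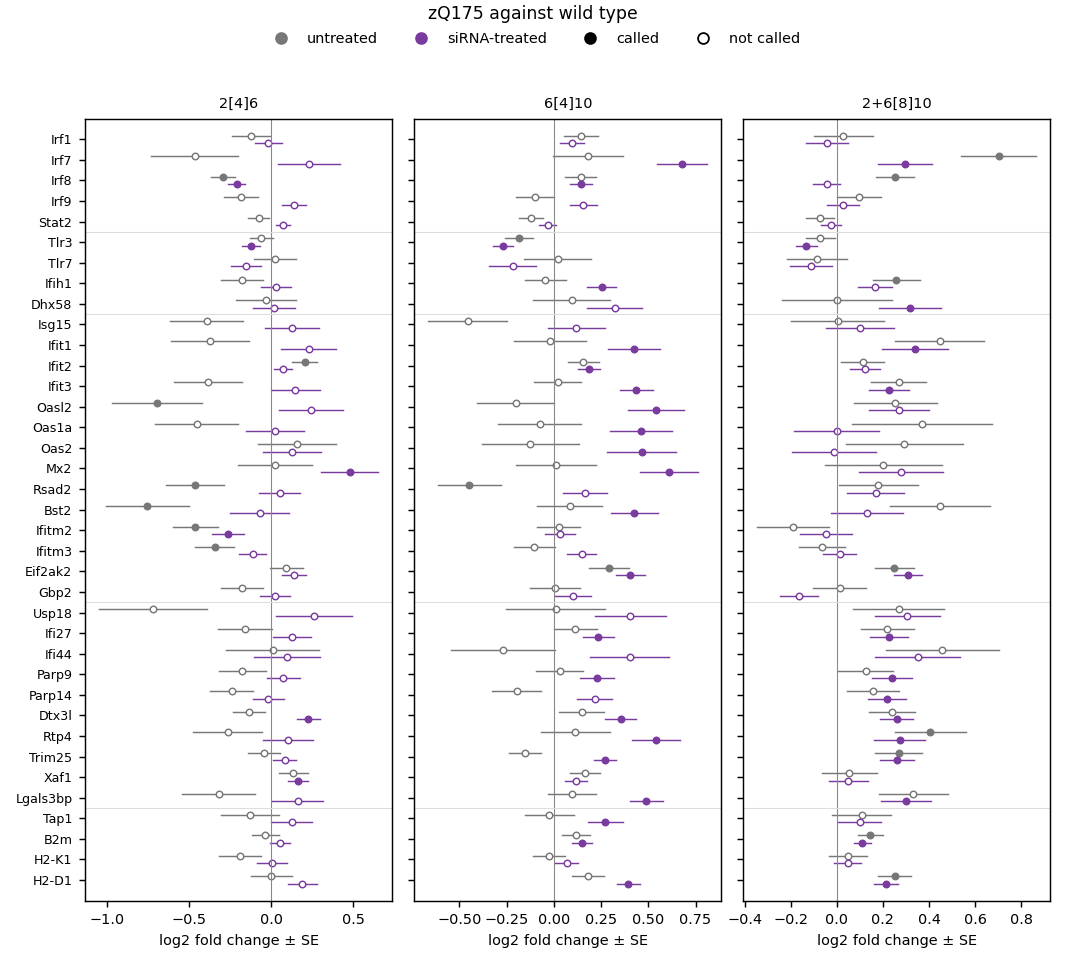
Log2 fold change of each tested member in zQ175 against wild type mice, by schedule, in untreated mice and in mice given either siRNA, with bars of 1 SE to each side from the edgeR fit; filled symbols were called at an adjusted p under 0.05. In siRNA-treated mice 21 members rose on 6[4]10 and 14 on 2+6[8]10, and in untreated mice 1 and 8. The siRNA-treated comparison holds more mice than the untreated one.

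Across schedules, the members higher in siRNA-treated zQ175 mice at 10 months overlapped: 12 were called on both, which are 12 of the 21 on 6[4]10 and 12 of the 14 on 2+6[8]10. Of all genes, 3129 were called higher on both, which are 79.1% of those on 6[4]10 and 76.2% of those on 2+6[8]10. They were B2m, Dtx3l, Eif2ak2, H2-D1, Ifi27, Ifit1, Ifit3, Irf7, Lgals3bp, Parp9, Rtp4 and Trim25. These sets come from different animals. In siRNA-treated mice Dtx3l was called higher and Tlr3 lower in zQ175 on all 3 schedules. The Tlr3 call on 2[4]6 was lost with DESeq2 (adjusted p = 0.0562), with RLE size factors (adjusted p = 0.0576) and in each sex alone. It was also lost without the filter on low counts (adjusted p = 0.096). In untreated mice Dtx3l was called on 0 schedules and Tlr3 on 1. Between untreated and siRNA-treated mice on 2+6[8]10, 6 members were called higher in both: B2m, Eif2ak2, H2-D1, Irf7, Rtp4 and Trim25, which are 6 of the 8 untreated and 6 of the 14 siRNA-treated calls. Of all genes, 2418 were called higher in both, which are 91.4% and 58.9%. That 21 members were called in siRNA-treated and 1 in untreated mice on 6[4]10 does not show a difference between them: the direct test, given above, called 0.

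H2-K1, the other class I heavy chain, passed the test in no genotype comparison. In untreated mice its medians in wild type and zQ175 were 33.1 and 29.0 CPM on 2[4]6, 35.6 and 33.6 CPM on 6[4]10, and 29.8 and 32.3 CPM on 2+6[8]10, and the ranges overlapped on each. H2-K1 and H2-D1 have similar sequences, and how reads were shared between them by the counting bears on both values.

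Whether the genotype effect differed between schedules was tested in untreated mice. Irf8 was the only member called. Its genotype effect was higher on 6[4]10 than on 2[4]6 by 0.43 ± 0.11 on the log2 scale (adjusted p = 0.037), beside 0.835% of all genes called, and higher on 2+6[8]10 than on 2[4]6 by 0.55 ± 0.11 (adjusted p = 0.0081), beside 0.0675% of genes. Between the schedules collected at 10 months 0 members and 0.0123% of genes were called, with 3 members at an unadjusted p under 0.05, beside 5.41% of genes. Untreated Irf8 medians were 10.4 CPM in wild type and 8.67 CPM in zQ175 on 2[4]6, 10.2 and 11.8 CPM on 6[4]10, and 8.81 and 10.2 CPM on 2+6[8]10. The order of these medians was thus opposite at 6 and at 10 months. The untreated genotype difference of Irf8 was called on 2[4]6 and on 2+6[8]10 and not on 6[4]10. Its call on 2+6[8]10 was lost without the libraries high in choroid plexus markers (adjusted p = 0.138). In siRNA-treated zQ175 mice Irf8 was called lower on 2[4]6, higher on 6[4]10 and was not called on 2+6[8]10. The call between 2+6[8]10 and 2[4]6 was lost without the libraries high in choroid plexus markers (adjusted p = 0.0788) and without male replicate 3, male replicate 1 or female replicate 3. The call between 6[4]10 and 2[4]6 was lost when any of 6 replicate numbers was left out. The schedules are also separate cohorts, so age and cohort cannot be told apart.

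Untreated levels differed between the schedules themselves. On 6[4]10 against 2[4]6, over both genotypes, 10 members were higher and 1 lower, beside 13% of all genes higher and 13.7% lower. Oas1a was higher by 0.66 ± 0.18 on the log2 scale, Irf9, the DNA-binding part of the interferon-stimulated complex, by 0.36 ± 0.07 (adjusted p = 5.4e-05) and Xaf1 by 0.33 ± 0.07, and Tlr3 was lower by 0.12 ± 0.05. Without female replicate 2 of every group the count was 7 in place of 11, and it was 4 with length and GC slopes as covariates and 4 in females alone. The call of Tlr3 was lost in 14 of 18 alternatives. On 2+6[8]10 against 2[4]6, 4 members were higher and 0 lower, beside 9.51% of all genes higher and 10.7% lower: Xaf1, Dtx3l, Irf9 and Eif2ak2; without female replicate 3 of every group the count was 2. Between 2+6[8]10 and 6[4]10, both collected at 10 months and both untreated, 2 members were higher and 6 lower, beside 16.3% of all genes higher and 17% lower. Oas1a had a log2 fold change of -0.57 ± 0.18, H2-K1 -0.22 ± 0.07, H2-D1 -0.19 ± 0.07 and Tlr3 0.19 ± 0.05. These differences lie between cohorts of 1 age. With length and GC slopes as covariates the values of H2-K1 and H2-D1 turned to 0.059 and 0.122 and 0 of these 8 calls were left. Without male replicate 2 of every group 2 were left, and without female replicate 2, 5.

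Every member called for sex was higher in females. Over all groups of a schedule, 6, 4 and 5 members were higher in females on 2[4]6, 6[4]10 and 2+6[8]10 and 0 were lower, beside 8.19%, 1.01% and 1.08% of all genes higher. The log2 fold change was positive in 31, 37 and 36 of 37 members, with medians of 0.13, 0.13 and 0.16, against 0.0023, 0.0000 and 0.0008 over all genes. B2m was called on each schedule, at 0.16 ± 0.05, 0.16 ± 0.04 and 0.17 ± 0.03 (adjusted p = 0.001 on 2+6[8]10). Ifi44 was higher by 0.47 ± 0.16 on 2[4]6 and 0.61 ± 0.17 on 6[4]10, Oasl2 by 0.45 ± 0.12 on 6[4]10, and Usp18 by 0.57 ± 0.11 on 2+6[8]10 (adjusted p = 0.0022). The counts changed with the animals left out: 1 to 8 on 2[4]6, 0 to 5 on 6[4]10 and 3 to 6 on 2+6[8]10 when each replicate number was left out. The 6[4]10 count was 0 without female replicate 2, female replicate 3 or male replicate 1. The 2[4]6 count was 1 without female replicate 1, and 2 without female replicate 3, male replicate 2 or male replicate 4. The 2+6[8]10 count was 3 without female replicate 2, female replicate 3 or male replicate 2.

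**Figure D4:**
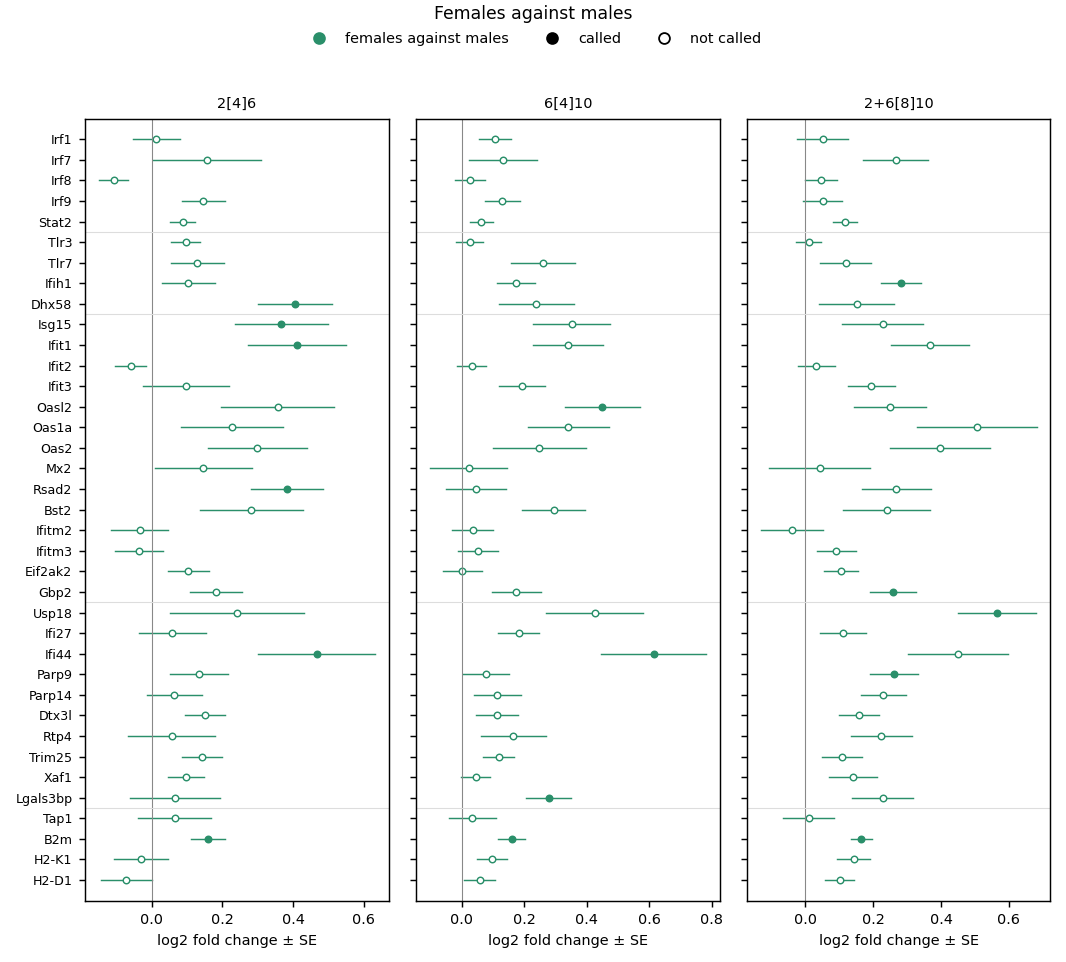
Log2 fold change of each tested member in females against males on each schedule, with bars of 1 SE to each side from the edgeR fit; filled symbols were called at an adjusted p under 0.05. The values lie to the female side for 31, 37 and 36 of 37 members.

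The mean of the 37 members in each animal, as the log2 deviation from each member's mean over all libraries, showed how uneven the animals were. The highest animals were a zQ175 female given NTC on 2[4]6 (0.52), a zQ175 female given HTT-10150 on 2[4]6 (0.51), a zQ175 female given NTC on 6[4]10 (0.50), an untreated zQ175 female on 2+6[8]10 (0.44) and an untreated wild type female on 6[4]10 (0.43). High animals were thus found in untreated, NTC and HTT-10150 groups and in both genotypes. The female given HTT-10150 also had 4081 CPM of choroid plexus markers, while the other 4 had between 41.8 and 124.7 CPM. Monocyte and neutrophil markers were between 0.365 and 0.952 CPM in these 5 animals. The SD of the mean over animals was 0.230 in untreated wild type mice on 2[4]6 and 0.047 in untreated zQ175 mice on 2[4]6. In untreated wild type mice on 6[4]10 it was 0.237, against 0.0785 under NTC and 0.0785 under HTT-10150.

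**Figure D5:**
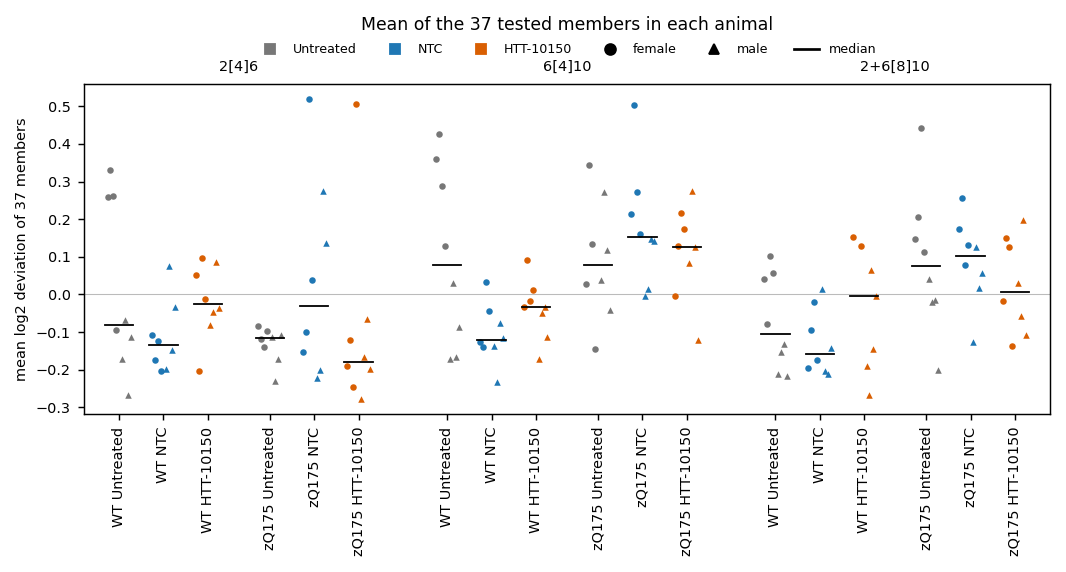
Mean log2 deviation of the 37 tested members in each animal, by group; colours mark the treatment, circles females, triangles males and bars the group median. The highest value is 0.52 and the SD within a group lies between 0.047 in untreated zQ175 mice on 2[4]6 and 0.262 in zQ175 mice given NTC on 2[4]6.

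Within groups, Irf7 moved with other members. Over 143 animals, with group and sex means removed, Pearson's r of Irf7 was 0.72 with Oasl2 (Spearman's rho 0.65), 0.61 with Ifit3 (rho 0.50), 0.53 with Bst2 (rho 0.43), 0.50 with H2-K1 (rho 0.44), 0.50 with H2-D1 (rho 0.43) and 0.42 with B2m (rho 0.345). Of 12 relations computed, these 6 had permutation p of at most 3e-05 for r (1e-05 is the smallest that 100000 permutations can give) and at most 0.00038 for rho; after Benjamini-Hochberg adjustment they were at most 6e-05 and 0.00076. Without the 2 animals farthest from the median of Irf7, r was 0.67 with Oasl2, 0.53 with Ifit3 and 0.37 with B2m. On 2[4]6, 6[4]10 and 2+6[8]10 taken apart, r with Oasl2 was 0.81, 0.73 and 0.52, and r with Bst2 was 0.75, 0.44 and 0.18. Irf7 had r of 0.18 with Irf8 (rho 0.15, adjusted permutation p = 0.096 and 0.14) and -0.03 with Tlr3 (rho -0.04, adjusted permutation p = 0.79 and 0.72). Among marker sums, r was 0.28 with endothelium (rho 0.28, adjusted permutation p = 0.002 and 0.0034), 0.18 with microglia (rho 0.16, adjusted permutation p = 0.053 and 0.12), 0.08 with meninges and fibroblasts (rho 0.06, adjusted permutation p = 0.53 and 0.61) and 0.07 with choroid plexus (rho 0.03, adjusted permutation p = 0.55 and 0.73). The choroid plexus value was 0.38 on 2[4]6, -0.24 on 6[4]10 and -0.18 on 2+6[8]10. The libraries share their depth and their tissue piece across genes.

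Upstream of the members stand the receptors and kinases. Of 16 genes of interferon receptors and signalling, 5, 3 and 5 were higher and 0, 1 and 1 lower in untreated zQ175 mice on 2[4]6, 6[4]10 and 2+6[8]10, and 6, 7 and 9 were higher and 1, 2 and 2 lower in siRNA-treated mice. The higher genes are 31.2%, 18.8% and 31.2% of the list in untreated mice, beside 15.3%, 19.2% and 17.1% of all genes, and 37.5%, 43.8% and 56.2% in siRNA-treated mice, beside 23.7%, 25.1% and 26.5%. Ifngr2, a chain of the interferon gamma receptor, rose on each, by 0.47 ± 0.05, 0.66 ± 0.06 and 0.57 ± 0.05 on the log2 scale in untreated mice. Jak2 fell by 0.25 ± 0.04 and 0.22 ± 0.04 in siRNA-treated mice at 10 months. In HTT-10150 against NTC, Jak1 fell by 0.12 ± 0.02 in zQ175 mice on 2+6[8]10 (adjusted p = 0.0045), and it was the only gene of the 5 pathway lists called in any siRNA comparison.

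Of 20 genes of class I processing, 5, 6 and 6 were higher and 1, 1 and 0 lower in untreated zQ175 mice on 2[4]6, 6[4]10 and 2+6[8]10, and 7, 11 and 7 were higher and 1, 0 and 1 lower in siRNA-treated mice. The higher genes are 25%, 30% and 30% of the list in untreated mice and 35%, 55% and 35% in siRNA-treated mice, beside the shares of all genes just given. Psme1, a subunit of the proteasome activator, rose by 0.45 ± 0.05, 0.53 ± 0.07 and 0.50 ± 0.05 in untreated mice. The immunoproteasome subunit Psmb10 rose by 0.29 ± 0.08, 0.53 ± 0.09 and 0.46 ± 0.07, and the class I gene H2-T22 by 0.27 ± 0.07, 0.47 ± 0.08 and 0.34 ± 0.06. Tapbpl, which edits peptides on class I, rose by 0.40 ± 0.10 on 6[4]10 and 0.44 ± 0.09 on 2+6[8]10. H2-T23 fell by 0.34 ± 0.09 on 2[4]6. Of the 9 genes of the class II list, 7, 8 and 7 were tested on 2[4]6, 6[4]10 and 2+6[8]10. In untreated mice 0, 2 and 1 were higher and 1 was lower on each. The higher genes are 0%, 25% and 14.3% of those tested, beside 15.3%, 19.2% and 17.1% of all genes. In siRNA-treated mice 0, 5 and 5 were higher and 1 was lower on each. These higher genes are 0%, 62.5% and 71.4% of those tested, beside 23.7%, 25.1% and 26.5%. The invariant chain Cd74 rose by 0.76 ± 0.25 in untreated mice on 6[4]10, and by 0.90 ± 0.17 and 1.12 ± 0.23 in siRNA-treated mice on 6[4]10 and 2+6[8]10, while H2-DMa fell by 0.36 ± 0.09, 0.22 ± 0.08 and 0.20 ± 0.07 in untreated mice. Of the 11 markers of activated microglia, 10 and 9 were tested in untreated mice on 6[4]10 and 2+6[8]10, and 4 were higher and 1 lower on each. Cst7 (median 0.322 CPM) rose by 2.17 ± 0.39 and 1.96 ± 0.33 and Clec7a (median 0.964 CPM) by 1.22 ± 0.22 and 1.55 ± 0.26. Most of the list's sum came from Lpl (median 85.4 CPM) and Axl (median 45.1 CPM), so it says little about Cst7 or Clec7a. The list's sum had medians of 163.6 CPM in wild type and 158.4 CPM in zQ175 on 6[4]10, and 169.5 and 170.5 CPM on 2+6[8]10. The part of these cells was not tested.

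Other interferon-induced genes and sensors were mixed. Of 49 other induced genes, 38 to 41 were tested; 1, 1 and 7 were higher and 5, 7 and 1 lower in untreated zQ175 mice on 2[4]6, 6[4]10 and 2+6[8]10, and 3, 12 and 5 were higher and 5, 2 and 4 lower in siRNA-treated mice. The higher genes are 2.63%, 2.44% and 17.5% of those tested in untreated mice and 7.89%, 29.3% and 12.5% in siRNA-treated mice, each near or below the share of all genes except on 6[4]10 in siRNA-treated mice, where it was 25.1%. The lower genes are 13.2%, 17.1% and 2.5% in untreated mice, beside 17.2%, 17% and 18.3% of all genes. The GTPase Irgm1 rose by 0.46 ± 0.10 in untreated mice on 2+6[8]10 and by 0.26 ± 0.09, 0.45 ± 0.08 and 0.30 ± 0.07 in siRNA-treated mice. Lgals3, a galectin of activated microglia, rose by 0.91 ± 0.21 on 6[4]10 and 0.69 ± 0.24 on 2+6[8]10 in untreated mice. Helz2 fell by 0.39 ± 0.12 on 2[4]6 and 0.43 ± 0.11 on 6[4]10. Of 18 genes of nucleic acid sensing, 17 were tested, and 1 to 4 were higher and 0 to 2 lower in each genotype comparison, which is 5.88% to 23.5% higher, below the share of all genes in each. Ddx58, which encodes the sensor RIG-I, rose by 0.31 ± 0.07 on 6[4]10 and 0.21 ± 0.07 on 2+6[8]10 in siRNA-treated mice. Adar, which edits double-stranded RNA, fell by 0.12 ± 0.03, 0.11 ± 0.03 and 0.15 ± 0.03 in untreated mice. Ddx60 had a log2 fold change of -0.79 ± 0.21 in untreated and 0.46 ± 0.15 in siRNA-treated mice on 6[4]10, and the test of the siRNA effect between genotypes gave 1.25 ± 0.25 (adjusted p = 0.157).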

How the data were processed

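Poly(A) RNA of mouse striatum was sequenced in 143 libraries, each from a separate mouse per the labels. The deposited expected counts, estimated per gene by RSEM on GRCm38 per the submitters' processing notes (no source used here states RSEM's version or whether counting used strand), were rounded to whole numbers; 78.4% of the values above 0 were already whole (within 1e-06). A second deposited table, headed as FPKM by the authors, summed to 1000000 in each library and was therefore read as TPM; it was used only for levels per length. Of 41135 entries, 7 for constructs or mutant alleles were left out. Depth was 12.55 M to 29.19 M counts (M, 1000000), no libraries were identical, and every sample column was used.

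Each schedule was fitted alone over its 6 groups with a sex term by edgeR 4.0.16 (quasi-likelihood test, filterByExpr, TMM scaling) in R 4.3.3. Comparisons between schedules came from a fit over all 143 libraries. P-values were adjusted over all tested genes by the Benjamini-Hochberg method and called under 0.05, and each SE was taken from the fold change and its F statistic. The fits were tested on simulated data. CPM values are TMM-scaled; means per animal and relations used log2(CPM + 0.5). Values per animal are given for Irf7, Ifit3, Oasl2, Bst2, B2m, H2-K1 and H2-D1 and for up to 6 called members per genotype or siRNA comparison by size of change, and up to 4 called genes per pathway list and comparison with a mean log2 CPM over 0 were named; Parp14, Usp18 and Cst7, Clec7a and Cd4 among the markers were named after their values were seen. A pathway gene that the rule would name is not reported here. Alternatives were DESeq2 1.42.0, RLE size factors, no filter, no sex term, blocks, length and GC slopes, other sample sets and leaving out each replicate number. The members and lists were chosen with earlier results of these data known. Promoter sequences and symbols came from RefSeq.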

Additional observations from a re-analysis of the deposited data

Results flagged for a closer look

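In 15 groups of values 1 sample lay far from the others. Chance gives about 1 in 20 of the groups examined. Those were the values of Irf7, Ifit3, Oasl2, Bst2, B2m, H2-K1, H2-D1 and the members' mean log2 deviation, in each group of mice. The same mice recur across these measures, so 1 mouse can be counted several times and the 15 are not independent. In the zQ175 groups on 2[4]6, a female given NTC had 11.6 CPM of Oasl2 and 22.4 CPM of Ifit3, and a male given NTC had 79.8 CPM of H2-D1 and 58.5 CPM of H2-K1, each far above the rest of its group. A zQ175 female given HTT-10150 on 2[4]6 stood apart in Irf7 (3.72 CPM), Oasl2 (6.34 CPM), Bst2 (6.85 CPM) and the mean log2 deviation of the members (0.51), and this library also held 4081 CPM of choroid plexus markers; the part of that tissue was not tested.

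On 6[4]10, a zQ175 female given NTC had 16.5 CPM of Ifit3, and a zQ175 male given HTT-10150 lay far below its group in Ifit3 (6.82 CPM) and H2-K1 (24.7 CPM). On 2+6[8]10, a wild type female given HTT-10150 had 81.5 CPM of B2m, an untreated wild type female 2.36 CPM of Irf7, a zQ175 female given NTC 6.31 CPM of Bst2 and a zQ175 male given HTT-10150 59.5 CPM of H2-D1.

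The genotype effect on Irf8 in untreated mice differed between schedules in edgeR's test of the difference itself, by 0.43 (6[4]10 against 2[4]6) and 0.55 (2+6[8]10 against 2[4]6) on the log2 scale.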

How the results depend on the processing

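The 0 calls of NTC or HTT-10150 against untreated mice, and of the siRNA effect between genotypes, were 0 under each alternative run. Other counts of called members moved. With females alone they were 2 (untreated genotype, 2[4]6), 5 (untreated genotype, 2+6[8]10), 4 (siRNA-treated genotype, 2+6[8]10), 4 (untreated 6[4]10 against 2[4]6), 1 (untreated 2+6[8]10 against 2[4]6) and 0 (untreated 2+6[8]10 against 6[4]10). With males alone the untreated genotype counts were 1, 6 and 0 and the siRNA-treated counts 2, 13 and 8 on 2[4]6, 6[4]10 and 2+6[8]10, and the schedule counts in the order above 5, 1 and 5. Either sex alone gave 0 for Parp14's comparison and for both differences that called Irf8; fewer animals were tested. With length and GC slopes the counts were 3 and 1 (untreated genotype, 2[4]6 and 6[4]10), 0 (HTT-10150 against NTC), 4 and 0 (6[4]10 against 2[4]6 and 2+6[8]10 against 6[4]10, untreated) and 0 (Irf8, 6[4]10 against 2[4]6). A block for the middle number of the library names gave 0 for HTT-10150 against NTC. That block was fitted within each genotype and only for the siRNA comparisons. Most of these numbers occurred in a single genotype and a single sex. Their part in the genotype and sex calls was not tested. No filter gave 3 and 1 for sex on 2[4]6 and 6[4]10 and 0 for Irf8 on 6[4]10 against 2[4]6. A single fit over all groups gave 5 and 9 (untreated and siRNA-treated genotype) and 2 (sex) on 2+6[8]10. Only the groups compared gave 0 for Irf8 on 6[4]10 against 2[4]6 and 3 members on 2+6[8]10 against 2[4]6. Without libraries high in choroid plexus markers, an alternative chosen after seeing the data as were the single-sex fits, the counts were 3 (siRNA-treated genotype, 2[4]6), 3 (sex, 2[4]6), 5 (untreated genotype, 2+6[8]10) and 0 (Irf8, 2+6[8]10 against 2[4]6). Direction reversed for Oasl2 in untreated males on 2[4]6 (0.026), for Ifit3 in siRNA-treated females on 2+6[8]10 (-0.097), and with length and GC slopes for H2-K1 (0.059) and H2-D1 (0.122) on untreated 2+6[8]10 against 6[4]10. The motif 1 base longer, with only the bases before the start, was held by 24.1% of members in place of 48.3%. The cause was not tested.

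Leaving out each replicate number gave 2 to 7, 0 to 3 and 4 to 8 members for the untreated genotype, and 3 to 7, 18 to 23 and 8 to 17 for the siRNA-treated genotype, on 2[4]6, 6[4]10 and 2+6[8]10. It gave 1 to 8, 0 to 5 and 3 to 6 for sex, 0 to 1 for HTT-10150 against NTC in zQ175 mice on 2+6[8]10, and 0 to 1 and 0 to 2 for the differences that called Irf8. For untreated 6[4]10 against 2[4]6, 2+6[8]10 against 2[4]6 and 2+6[8]10 against 6[4]10 it gave 7 to 11, 2 to 4 and 2 to 9. DESeq2 gave no adjusted p for Parp14 (HTT-10150 against NTC), Usp18 (sex, 2+6[8]10) and Irf8 (6[4]10 against 2[4]6), which are not counted as lost.

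With the replicate number as a block, 2 members were called for the genotype difference of 2+6[8]10 against 2[4]6, and the count of no other result moved by over 1.5 times. The numbers were not taken as pairing the samples, since only 66 of 120, 51 of 120 and 49 of 110 same-numbered pairs correlated over 0.1. The median r was nevertheless higher between same-numbered samples on each schedule, at 0.146, 0.0645 and 0.0802. It was -0.0626, -0.0262 and -0.0234 between other numbers. What the same-numbered samples shared was not tested. The block could not be fitted for sex or for untreated schedules against each other. Depth limits the low members, of which Mx2 had a median of 16 counts in a library.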
